A study of Mus musculus with 18 samples.

Results

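Myosin heavy chain forms the thick filament of the sarcomere and sarcomeric actin forms the thin filament, and each protein has isoforms encoded by separate genes. The genes described here are Myh6, Myh7 and Myh7b for myosin, Acta1 and Actc1 for actin, and Mhrt, a long noncoding RNA beside Myh7. They were taken by name from the deposited count table, and all 6 were found among its 48709 genes. The samples are 18 RNA-seq libraries of left ventricle from wild type C57BL/6J male mice, 12 weeks old, in 3 groups of 6. The first group received 30 mg/kg of isoproterenol per day, a synthetic agonist of β-adrenergic receptors delivered by osmotic pump, and a daily injection of 50 mg/kg minocycline, a tetracycline antibiotic. The second group had the isoproterenol pump with injections of saline in place of minocycline, and the Control group had saline in both. Tissue was collected after 21 days. No group given minocycline alone was analysed here. The label text speaks of pooled RNA, so whether 1 library stands for 1 animal is uncertain and p-values measure the spread between libraries.

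Myh6 encodes α-myosin heavy chain, the fast isoform that dominates the adult mouse ventricle, and Myh7 encodes β-myosin heavy chain, the slower isoform of the fetal ventricle. Thyroid hormone raises transcription of Myh6 and lowers that of Myh7 in rodent hearts. Actc1 encodes cardiac α-actin and Acta1 encodes skeletal α-actin, which is abundant in the fetal rodent heart. Higher Myh7 and Acta1 are widely used as markers of hypertrophic growth. Myh7b encodes a further sarcomeric myosin, and much of its RNA in the mammalian heart is spliced into a form that makes no full-length protein. Mhrt, described in mouse as a cardiac RNA that binds the chromatin remodeller Brg1, is transcribed from the strand opposite to Myh7.

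Each of the 3 myosin genes also carries a microRNA in an intron. These microRNAs are printed because their seeds (bases 2 to 8, in capitals) tie the host genes together. Mir208a lies in intron 29 of Myh6, Mir208b in intron 31 of Myh7 and Mir499 in intron 19 of Myh7b, counted from the start of the first-numbered transcript of each in GENCODE M21. The sequences are from RefSeq on GRCm38.p6.
mmu-miR-208a-3p: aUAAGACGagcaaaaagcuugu
mmu-miR-208b-3p: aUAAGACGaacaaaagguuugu
mmu-miR-499-5p: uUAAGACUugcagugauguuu
The 208a and 208b arms share 1 seed, and the seed of miR-499-5p differs from it in its last base. The table lists all 3 microRNA genes at 0 counts in all 18 libraries. Polyadenylated RNA was sequenced, and mature microRNAs were not measured.

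The members lie on 3 chromosomes of GRCm38, given here with the coordinates of the deposited table. Myh6 (ENSMUSG00000040752) spans chr14:54941981-54966927 on the minus strand. Myh7 (ENSMUSG00000053093) spans chr14:54970688-54994634, also on the minus strand, and Mhrt (ENSMUSG00000097652) spans chr14:54968678-54974349 on the plus strand. Mhrt therefore begins 1750 bases past the Myh6 gene and runs into the 3′ part of Myh7, as the map of exons shows. Myh7b (ENSMUSG00000074652) spans chr2:155611212-155634307 on the plus strand. Actc1 (ENSMUSG00000068614) spans chr2:114047282-114053548 and Acta1 (ENSMUSG00000031972) spans chr8:123891769-123894751, both on the minus strand.

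**Figure D1:**
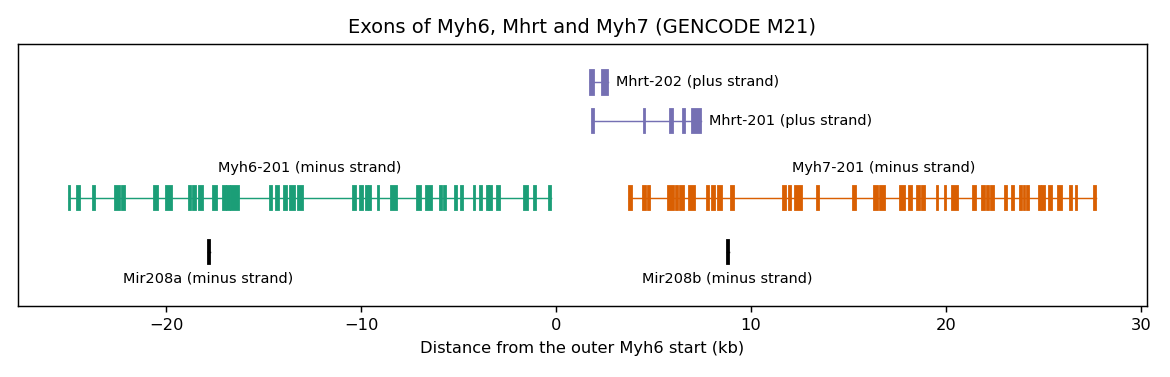
Exons (boxes) and introns (lines) of Myh6, Myh7 and the Mhrt transcripts along chromosome 14, with the microRNA genes below, by distance in kb from the outer start of Myh6. Mhrt starts 1750 bases past Myh6 and 484 of its exon bases lie inside exons of Myh7 on the other strand.

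Mhrt and Myh7 overlap in sequence. Of the 1214 exon bases of Mhrt, 484 (39.9%) lie inside exons of Myh7, and Mhrt held 25.4% as many counts as Myh7 on average. Whether counting used strand is not given in the sources used here, so reads from the shared stretch may be assigned to either gene and values of Mhrt are uncertain. Trpc4ap, on the other strand, shares 37 exon bases with Myh7b and held 71.5% as many counts, so Myh7b is likewise reported with that limit.

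The isoforms of 1 family are close in sequence. The coding sequence of Acta1 was 86.3% identical to that of Actc1, with 155 of 1131 bases different and no identical run over 29 bases. The first 120 coding bases are shown because they let a reader see how a read is told apart, with bases that differ between the 2 genes in capitals.
Acta1: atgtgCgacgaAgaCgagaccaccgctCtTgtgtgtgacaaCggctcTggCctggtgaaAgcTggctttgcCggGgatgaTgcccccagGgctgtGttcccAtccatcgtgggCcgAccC
Actc1: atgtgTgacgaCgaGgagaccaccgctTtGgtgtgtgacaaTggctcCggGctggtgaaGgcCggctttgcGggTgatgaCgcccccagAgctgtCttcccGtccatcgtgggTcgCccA
These stretches differ at 19 bases. The coding sequences of Myh6 and Myh7 were closer, at 91.8% identity with 478 bases different, and their longest identical run was 245 bases. Their most divergent 90-base stretch, coding bases 3222 to 3311 of Myh6 and 3216 to 3305 of Myh7, differs at 33 bases, again in capitals.
Myh6: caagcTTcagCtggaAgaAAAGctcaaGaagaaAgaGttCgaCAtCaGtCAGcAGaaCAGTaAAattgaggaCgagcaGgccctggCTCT
Myh7: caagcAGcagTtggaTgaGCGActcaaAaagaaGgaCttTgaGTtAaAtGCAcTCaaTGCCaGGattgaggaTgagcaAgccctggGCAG
Of all stretches of 150 bases, the read length, 4.78% of those in Myh6, 4.35% in Myh7 and 4.71% in Mhrt also occur in another gene of the annotation, mostly in one another. For Myh7b, Acta1 and Actc1 the share was 0%. Myh7b was 72.9% identical to Myh6 and 73.1% to Myh7 in coding sequence.

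Libraries held 14203041 to 22688664 counts, of which genes of the mitochondrial genome took 40.1 to 47.7%. The 6 members together took 3.06 to 3.71% of the counts in libraries of Isoproterenol and minocycline, 3.08 to 3.59% in those of Isoproterenol and 3.50 to 4.20% in Control. All 12 cardiomyocyte markers were detected, which does not tell left ventricle from other heart muscle. Their summed level was 44258 to 50312 CPM (counts after TMM scaling of library sizes) in Isoproterenol and minocycline, 44239 to 48132 CPM in Isoproterenol and 52614 to 55653 CPM in Control. In bulk tissue, fewer cells of a type and less RNA per cell cannot be told apart. Skeletal muscle is the usual site of Acta1, and the 16 markers listed for it are those of fast skeletal muscle. Of its 16 markers, the defining Myh4 and Myf6 had 0 counts in all libraries, and Myh1 and Myh2 had 4 and 8 counts in total. Other markers of the list were present, with totals of 9335 counts for Mybpc2, 9018 for Myl1, 3957 for Casq1 and 2232 for Neb. The rest apart from Ckm had totals from 23 (Tnnc2) to 278 (Tnni2) counts. The summed level of the 16 was 1558 to 1767 CPM in Isoproterenol and minocycline, 1566 to 1721 CPM in Isoproterenol and 1829 to 2015 CPM in Control, and most of it was Ckm, which heart muscle also expresses, at 1457 to 1956 CPM. The summed level of Sln, Myl7 and Myl4, which mark atrial muscle, varied widely within each group, from 26.2 to 484 CPM in Isoproterenol and minocycline, 23.0 to 230 CPM in Isoproterenol and 35.7 to 315 CPM in Control.

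Levels of different genes were compared by RPKM (counts per kilobase of gene, scaled to library size), as deposited by the authors. Actc1 was the most abundant member and exceeded Myh6 in 18 of 18 libraries. Actc1 averaged 4833 ± 627 RPKM in Isoproterenol and minocycline, 4678 ± 617 RPKM in Isoproterenol and 4817 ± 500 RPKM in Control (SD, n = 6 each, as for all means below). Myh6 averaged 3641 ± 292, 3529 ± 247 and 4086 ± 214 RPKM in Isoproterenol and minocycline, Isoproterenol and Control. Acta1 came next in every library, with 105 ± 67.9, 74.1 ± 27.9 and 325 ± 207 RPKM in the same groups. The 3 remaining genes formed a low tier. Mhrt averaged 30.1 ± 3.81 RPKM in Isoproterenol and minocycline, 28.9 ± 4.55 RPKM in Isoproterenol and 33.8 ± 3.46 RPKM in Control. Myh7 averaged 21.4 ± 8.88, 8.03 ± 5.47 and 21.3 ± 14.1 RPKM in these groups, and Myh7b averaged 11.9 ± 1.81, 11.8 ± 1.48 and 19.6 ± 1.75 RPKM. The order of Myh7 and Myh7b changed with the library. Myh7 was above Myh7b in 5 of 6 libraries of Isoproterenol and minocycline, 1 of 6 of Isoproterenol and 2 of 6 of Control, so their order was not settled. Mhrt exceeded Myh7 in 15 of 18 libraries and Myh7b in 18 of 18. The order of these low genes also depends on the length used. Within a library, counts and RPKM show that the authors divided Myh7 by 8586 bases, though its first-numbered coding transcript has 6135 (71.5%), so its RPKM understates that transcript. The same share was 96.3% for Myh6, 92.9% for Myh7b, 94.1% for Acta1 and 91.0% for Actc1, taking the authors' length of Acta1 as its annotated exons. Per base of these transcripts, with Mhrt kept at its 1214 exon bases, Myh7 was above Myh7b in 6 of 6 libraries of Isoproterenol and minocycline, 2 of 6 of Isoproterenol and 2 of 6 of Control. Mhrt then exceeded Myh7 in 13 of 18 libraries, and in 15 of 18 where Mhrt was given the 828 bases of its first-numbered transcript. On that last scale Acta1 exceeded Mhrt in 17 of 18 libraries.

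Isoproterenol versus Control asked how the isoforms differed after sustained β-adrenergic stimulation. Of the 6 members, 5 were lower in isoproterenol-infused ventricles and 0 were higher, with Acta1 and Myh7 showing the deepest reductions, at 4.86-fold and 2.98-fold. Myh7b was 1.84-fold lower, Mhrt 1.29-fold lower and Myh6 1.28-fold lower. Over all 13281 genes tested, 12.6% were called in either direction, 5.62% lower and 6.94% higher, at an adjusted p under 0.05 (edgeR, quasi-likelihood, Benjamini-Hochberg over all genes tested). The median log2 fold change was -0.62 over the 6 members and 0.0011 over all genes tested.

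The deepest fall among the myosins was that of Myh7. Myh7 had a lowest, median and highest level of 35.9, 49.4 and 152 CPM in Isoproterenol, against 58.7, 154 and 392 CPM in Control. The groups overlapped, and 4 of 6 isoproterenol libraries lay below the lowest Control library. The log2 fold change was -1.58 ± 0.47 (SE, adjusted p = 0.0391, edgeR), and 6 of 6 isoproterenol libraries were below the Control mean. That call did not hold without Isoproterenol 1, 2, 3, 4 or 6 or without Control 2, 3 or 6, each left out in turn (adjusted p = 0.0510 to 0.0926 in edgeR, log2 fold changes of -1.67 to -1.30), nor in a fit of these 12 libraries alone (adjusted p = 0.0712).

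Myh7b gave the smallest p of the members. Its lowest, median and highest levels were 74.8, 77.7 and 104 CPM in Isoproterenol, against 136, 153 and 164 CPM in Control. Every isoproterenol library lay below every Control library, with a wide gap between the groups, and the log2 fold change was -0.88 ± 0.088 (adjusted p = 1.02e-06, edgeR). Trpc4ap, the gene that overlaps Myh7b, had a log2 fold change of -0.16 ± 0.053 (adjusted p = 0.0486, edgeR).

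Myh6, the dominant myosin, fell by a small and even amount. Its lowest, median and highest levels were 21847, 23282 and 25299 CPM in Isoproterenol, against 28252, 29868 and 32271 CPM in Control. The groups did not overlap, and the fit gave a log2 fold change of -0.36 ± 0.060 (adjusted p = 4.84e-04, edgeR). Of the 12 cardiomyocyte markers, 5 also fell (41.7%, against 5.62% of all genes tested) and 0 rose. Among them Myl3, an essential light chain of ventricular myosin, had a log2 fold change of -0.47 ± 0.058 (adjusted p = 1.53e-05, edgeR), and Myl2, its regulatory light chain, one of -0.40 ± 0.051 (adjusted p = 2.66e-05, edgeR). The part of these markers in the Myh6 result was not tested.

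Of the actins, Acta1 fell and Actc1 did not pass the test. Acta1 had a lowest, median and highest level of 77.4, 108 and 169 CPM in Isoproterenol, against 245, 482 and 1228 CPM in Control. The groups did not overlap, and Control 2 stood far above the other Control libraries. The log2 fold change was -2.28 ± 0.45 (adjusted p = 0.00380, edgeR), and leaving out Control 2 gave -1.90. Actc1 had a lowest, median and highest level of 6324, 8003 and 9207 CPM in Isoproterenol, against 8221, 8725 and 10461 CPM in Control. These ranges overlapped through 1 isoproterenol library. It had a log2 fold change of -0.19 ± 0.088 (adjusted p = 0.161, edgeR), with a 95% interval of -0.37 to -0.0078.

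Mhrt, the antisense neighbour, had a lowest, median and highest level of 29.2, 35.2 and 45.4 CPM in Isoproterenol, against 40.4, 47.6 and 52.7 CPM in Control. The groups overlapped, with 4 of 6 isoproterenol libraries below the lowest Control library. In the fit Mhrt had a log2 fold change of -0.37 ± 0.11 (adjusted p = 0.0357, edgeR), and the call did not hold without Isoproterenol 1, 4, 5 or 6 or without Control 2, 3, 5 or 6 (adjusted p = 0.0504 to 0.0861 in edgeR, log2 fold changes of -0.38 to -0.31). Groups that do not overlap were seen for 3 of the 6 members, against 6.90% of all genes tested.

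**Figure D2:**
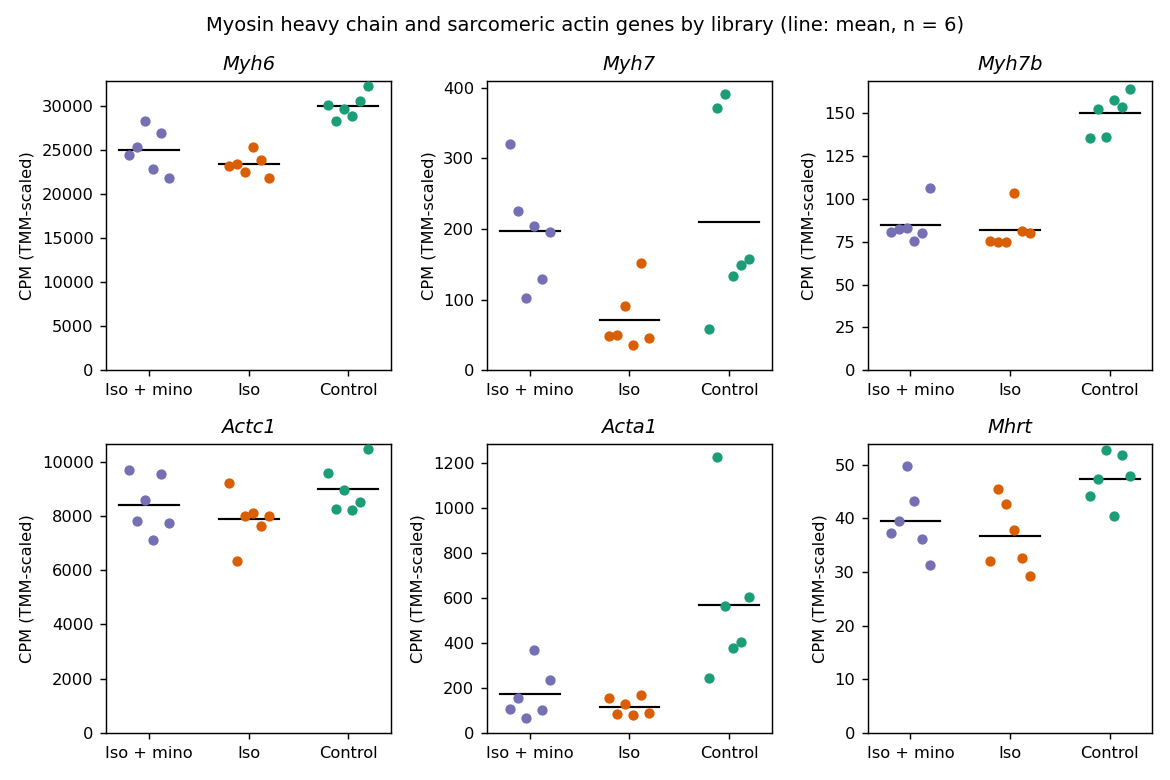
Level of each member in CPM (TMM-scaled) in each library, with groups from left to right Isoproterenol and minocycline (Iso + mino), Isoproterenol (Iso) and Control, and a line at the mean of 6 libraries. Myh6, Myh7b and Acta1 of the isoproterenol libraries lie below all Control libraries, while Myh7 of the libraries with added minocycline spans 102 to 321 CPM, within the Control range of 58.7 to 392 CPM.

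Isoproterenol and minocycline versus Isoproterenol asked what the antibiotic changed in infused animals. None of the 6 members passed the test in edgeR, and 1 of them, Myh7, had an unadjusted p under 0.05. Over all genes tested 0.0527% were called, 0.346% had groups that did not overlap, and 7.60% had an unadjusted p under 0.05. DESeq2 called 0 of the 5 members to which it gave an adjusted p, and it gave none to Mhrt. The members had a median log2 fold change of 0.10, against -0.0026 over all genes tested.

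Myh7 differed most between the infused groups. Its lowest, median and highest levels were 102, 200 and 321 CPM in Isoproterenol and minocycline, against 35.9, 49.4 and 152 CPM in Isoproterenol. Of the 6 isoproterenol libraries, 5 lay below every library with minocycline, and Isoproterenol 5 alone reached into their range. In edgeR this was a log2 fold change of 1.48 ± 0.47 with a 95% interval of 0.48 to 2.48 (adjusted p = 0.469), at rank 182 of 13281 genes by p. All 6 libraries with minocycline were above the isoproterenol mean. With DESeq2 the log2 fold change was 1.47 (adjusted p = 0.0594). With the mean of the atrial markers as a covariate, it was 1.40 in edgeR (adjusted p = 0.601).

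None of the other members passed the test between the infused groups, and the interval of Acta1 was wide. Acta1 had a lowest, median and highest level of 64.5, 133 and 370 CPM in Isoproterenol and minocycline, against 77.4, 108 and 169 CPM in Isoproterenol. The range with minocycline enclosed that without, and the log2 fold change was 0.56 ± 0.43 with a 95% interval of -0.36 to 1.48 (adjusted p = 0.774, edgeR). Without Isoproterenol and minocycline 4, the highest library, it was 0.19, and over all libraries left out in turn it was 0.19 to 0.73. Myh7b had a log2 fold change of 0.053 ± 0.088 with an interval of -0.13 to 0.24 (adjusted p = 0.900, edgeR). Myh6 had one of 0.095 ± 0.060 with an interval of -0.030 to 0.22 (adjusted p = 0.741, edgeR). Actc1 had a log2 fold change of 0.095 ± 0.088 with an interval of -0.087 to 0.28 (adjusted p = 0.806, edgeR). Mhrt had one of 0.11 ± 0.11 with an interval of -0.13 to 0.34 (adjusted p = 0.834, edgeR).

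Isoproterenol and minocycline versus Control shares its Control libraries with the first comparison, so the values are given for themselves. Myh7b, Acta1 and Myh6 were lower with both drugs, which is 3 of the 6 members, and 0 were higher. Over all genes tested, 19.3% were called in either direction, 9.05% lower and 10.2% higher. The median log2 fold change was -0.26 over the members and 0.0035 over all genes.

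Myh7b had a lowest, median and highest level of 75.5, 81.4 and 107 CPM in Isoproterenol and minocycline, against 136, 153 and 164 CPM in Control. The groups did not overlap, and the log2 fold change was -0.83 ± 0.088 (adjusted p = 2.05e-06, edgeR). Trpc4ap had a log2 fold change of -0.23 ± 0.053 in this comparison (adjusted p = 0.00495, edgeR). Of the 6 members, Myh7b was the one whose groups did not overlap here, against 7.14% of all genes tested.

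Acta1 had a lowest, median and highest level of 64.5, 133 and 370 CPM in Isoproterenol and minocycline, against 245, 482 and 1228 CPM in Control. The overlap came from Isoproterenol and minocycline 4, the one treated library above the lowest Control library. The log2 fold change was -1.72 ± 0.44 (adjusted p = 0.0132, edgeR). Myh6 had a lowest, median and highest level of 21772, 24894 and 28288 CPM in Isoproterenol and minocycline, against 28252, 29868 and 32271 CPM in Control. Its groups touched at 1 library each, and the log2 fold change was -0.26 ± 0.060 (adjusted p = 0.00426, edgeR). Of the 12 cardiomyocyte markers, 6 also fell with both drugs (50.0%, against 9.05% of all genes tested) and 0 rose. Among them were Myl3 (log2 fold change -0.46, adjusted p = 1.57e-05, edgeR) and Myl2 (-0.32, adjusted p = 2.28e-04). Their part in this Myh6 result was not tested.

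Myh7, Actc1 and Mhrt did not pass the test against Control with both drugs. Myh7 had a lowest, median and highest level of 102, 200 and 321 CPM in Isoproterenol and minocycline, against 58.7, 154 and 392 CPM in Control. The Control range enclosed the treated one. Its log2 fold change was -0.10 ± 0.46 with a 95% interval of -1.07 to 0.87 (adjusted p = 0.902, edgeR). Actc1 had a log2 fold change of -0.095 ± 0.088 (adjusted p = 0.475, edgeR). Mhrt had one of -0.26 ± 0.11 (adjusted p = 0.105, edgeR), and it passed the test once Isoproterenol and minocycline 3 was left out (-0.34, adjusted p = 0.0307).

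**Figure D3:**
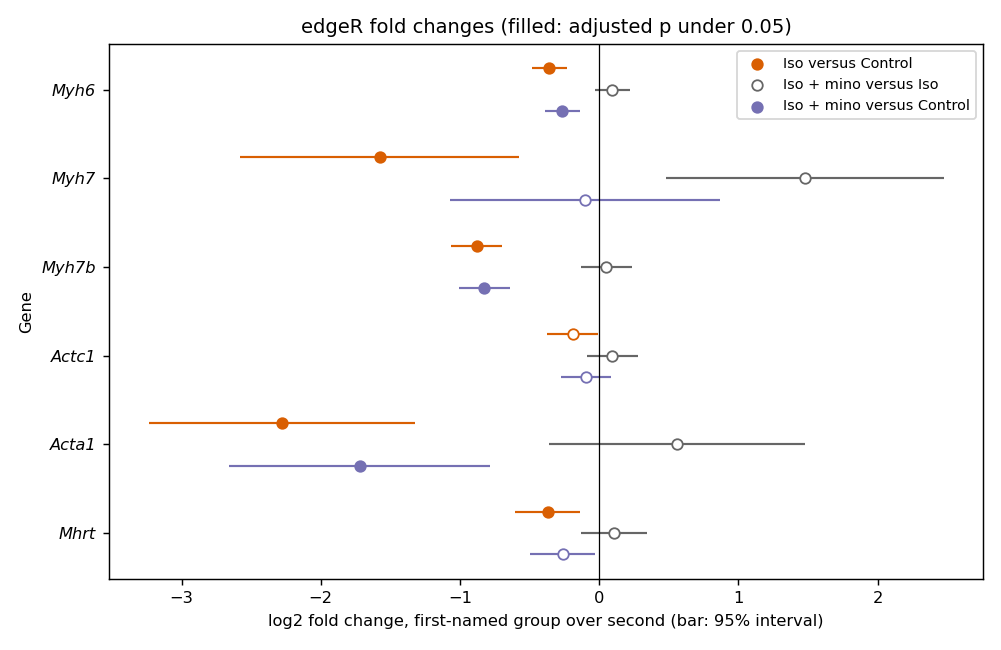
Log2 fold change (x axis) of each member (y axis) in the 3 comparisons, with the first-named group over the second, 95% intervals as bars and filled points where the adjusted p in edgeR was under 0.05. Against Control, Myh7b, Acta1 and Myh6 lie below 0 for both infused groups, and Myh7 at 1.48 is the member farthest from 0 in Isoproterenol and minocycline versus Isoproterenol.

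Isoform composition was followed by 6 ratios per library, formed from RPKM so that library size cancels and each gene is divided by the authors' length. Differences of group means were tested by 2-sided exact permutation of the libraries, with Benjamini-Hochberg adjustment over 18 tests. The smallest p that the 924 regroupings allow is 0.00216. The adult isoforms prevailed in every library: Myh7 was at most 0.967% of Myh6 plus Myh7, and Acta1 was at most 13.5% of Acta1 plus Actc1. Per base of the first-numbered coding transcripts, these maxima were 1.30% and 13.2%.

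The skeletal share of sarcomeric actin fell after isoproterenol. Acta1 made up 1.54 ± 0.457% of Acta1 plus Actc1 in Isoproterenol, against 6.25 ± 3.78% in Control. The ranges were 0.994 to 2.27% in Isoproterenol and 2.63 to 13.5% in Control, so the groups did not overlap (exact permutation p = 0.00216, adjusted p = 0.0195). With minocycline added, the share was 2.24 ± 1.68%, against 1.54 ± 0.457% in Isoproterenol (exact permutation p = 0.409, adjusted p = 0.669). Isoproterenol and minocycline 4, at 5.20%, carried most of this difference of 0.701 percentage points, which was 0.109 without that library, 0.109 to 0.991 over all libraries left out in turn and 0.104 between group medians. Set against Control, the 2.24 ± 1.68% with both drugs missed the threshold after adjustment (exact permutation p = 0.0173, adjusted p = 0.0519). That test passed the threshold without Control 1 (adjusted p = 0.0468, exact permutation), and without Isoproterenol 5, which is outside the comparison and acts through the adjustment over the tests (adjusted p = 0.0445).

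The β share of myosin was low and varied several-fold within each group. Myh7 made up 0.593 ± 0.250% of Myh6 plus Myh7 in Isoproterenol and minocycline, against 0.224 ± 0.138% in Isoproterenol (exact permutation p = 0.0173, adjusted p = 0.0519). The lowest, median and highest shares were 0.265, 0.657 and 0.961% with minocycline, against 0.105, 0.157 and 0.470% without. The groups overlapped, and the difference passed the threshold as a log2 ratio or with group medians (adjusted p = 0.0468 for both, exact permutation), and without Isoproterenol and minocycline 3 (adjusted p = 0.0390) or Isoproterenol 5 (adjusted p = 0.0312). The share of 0.224 ± 0.138% in Isoproterenol was set against 0.523 ± 0.352% in Control and did not pass the threshold (exact permutation p = 0.0844, adjusted p = 0.190), though it did without Isoproterenol 5 (adjusted p = 0.0487, exact permutation). The share of 0.593 ± 0.250% with both drugs was set against the same Control value (exact permutation p = 0.719, adjusted p = 0.974). Per base of the coding transcripts, the share was higher in every group, at 0.797 ± 0.336% in Isoproterenol and minocycline, 0.301 ± 0.185% in Isoproterenol and 0.703 ± 0.473% in Control. No call changed on that scale, where the adjusted p was 0.0519 between the infused groups, 0.190 for Isoproterenol versus Control and 0.957 for Isoproterenol and minocycline versus Control (exact permutation).

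Myh7b made up 0.332 ± 0.0325% of the summed myosins in Isoproterenol, against 0.475 ± 0.0377% in Control (exact permutation p = 0.00216, adjusted p = 0.0195). The groups did not overlap, so Myh7b fell by more than the myosins as a whole. It made up 0.326 ± 0.0685% in Isoproterenol and minocycline, against 0.475 ± 0.0377% in Control (exact permutation p = 0.00649, adjusted p = 0.0390). Here Isoproterenol and minocycline 6, at 0.463%, lay within the Control range. This call depended on which library was left out. It missed the threshold without Isoproterenol and minocycline 1, 2, 4 or 5 or without Control 2, 3, 4, 5 or 6 (adjusted p = 0.0519 to 0.0779, exact permutation). Between the infused groups, the shares of 0.326 ± 0.0685% with minocycline and 0.332 ± 0.0325% without were not distinguished (exact permutation p = 0.870, adjusted p = 0.974).

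The ratios of Mhrt to Myh6 lay close together in all groups, while those of Mhrt to Myh7 spread widely. The log2 ratio of Mhrt to Myh6 was -6.92 ± 0.184 in Isoproterenol and minocycline, -6.95 ± 0.246 in Isoproterenol and -6.92 ± 0.138 in Control, with an adjusted p of 0.974 in each comparison (exact permutation). The log2 ratio of Mhrt to Myh7 was 0.59 ± 0.722 in Isoproterenol and minocycline, 2.05 ± 0.823 in Isoproterenol and 0.95 ± 0.955 in Control. None of its differences passed the threshold. The nearest was that of -1.46 between Isoproterenol and minocycline and Isoproterenol (exact permutation p = 0.0130, adjusted p = 0.0519). This difference passed with group medians (adjusted p = 0.0468) and without Isoproterenol and minocycline 3, Isoproterenol 5 or Control 1 (adjusted p = 0.0312 to 0.0468, exact permutation). Control 1 is outside that comparison and acts through the adjustment over the tests. Without Isoproterenol 5, the difference of 1.40 between Isoproterenol and Control passed as well (adjusted p = 0.0445, exact permutation).

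The balance of thin and thick filament transcripts did not pass the test in any comparison. The log2 ratio of summed actins to summed myosins was 0.42 ± 0.147 in Isoproterenol and minocycline, 0.41 ± 0.194 in Isoproterenol and 0.31 ± 0.0928 in Control. The adjusted p was 0.974 between the infused groups, 0.510 for Isoproterenol versus Control and 0.294 for Isoproterenol and minocycline versus Control (exact permutation).

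**Figure D4:**
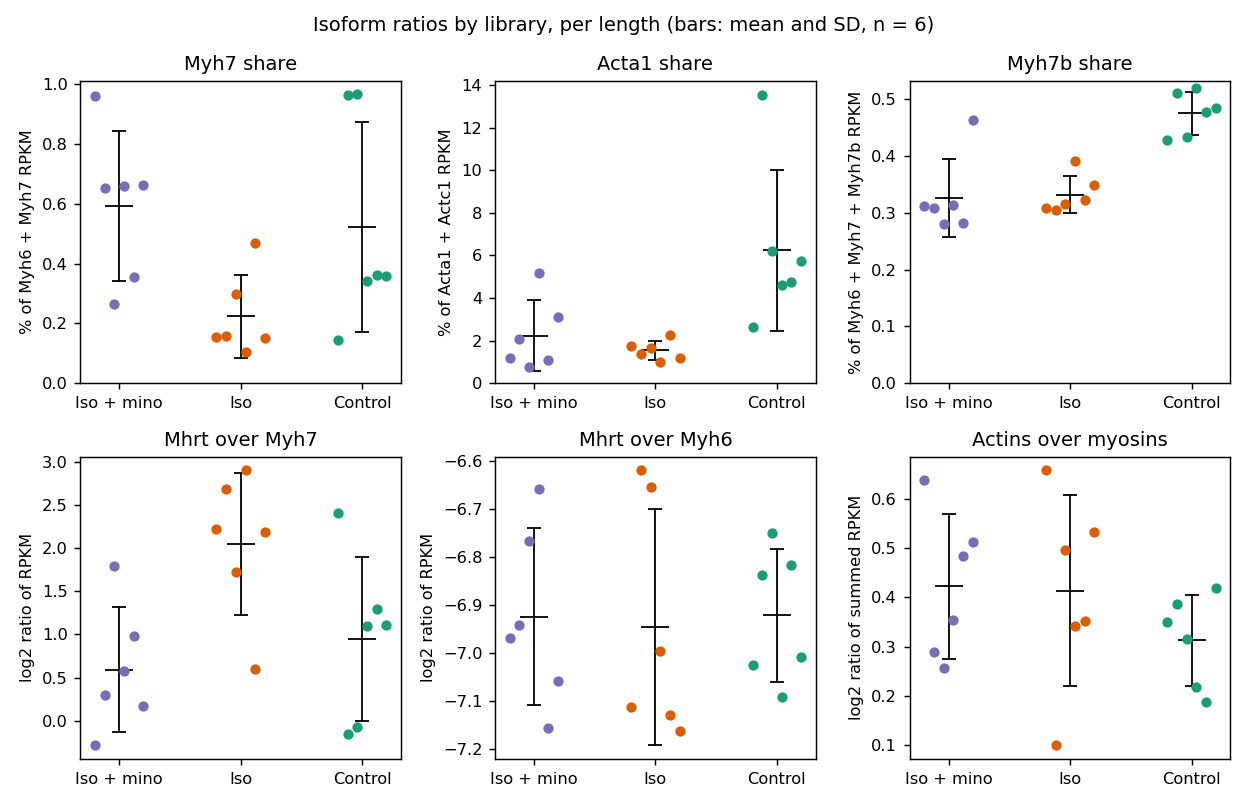
The 6 isoform ratios in each library, with mean and SD (bars, n = 6) for Isoproterenol and minocycline (Iso + mino), Isoproterenol (Iso) and Control. Shares are percentages of summed RPKM and the lower panels are log2 ratios of RPKM. The Acta1 and Myh7b shares of all isoproterenol libraries lie below those of all Control libraries.

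Myh7 and Acta1 were also the members that varied most within groups. Their biological coefficients of variation in the fit were 53.8% and 50.5%, and 0.798% and 0.896% of tested genes had a higher one. The other members had 8.52% (Myh6), 11.3% (Myh7b), 11.5% (Actc1) and 13.7% (Mhrt), around the common value of 13.2%. Myh7 ranged 6.67-fold between the lowest and the highest Control library, and Acta1 varied from 245 to 1228 CPM there.

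Libraries high in Myh7 tended to be high in Acta1. Over the 18 libraries, with group means removed, the log2-CPM values of these genes had a Pearson r of 0.66 (permutation p = 0.00465, adjusted p = 0.0697) and a Spearman rho of 0.69 (permutation p = 0.00370, adjusted p = 0.0555). The relation missed the threshold after adjustment over the 15 pairs of members. Without the 2 libraries farthest from the median of Myh7, r was 0.57, and within groups it was 0.46 in Isoproterenol and minocycline, 0.73 in Isoproterenol and 0.85 in Control. Control 2 was the highest library in Acta1, at 1228 CPM, and had 372 CPM of Myh7, while Control 1 was the lowest Control library in both, at 245 and 58.7 CPM. Acta1 and Myh6 ran the other way, with an r of -0.59 (permutation p = 0.0264, adjusted p = 0.198) and a rho of -0.57 (permutation p = 0.0344, adjusted p = 0.258). No other pair had an unadjusted permutation p under 0.05.

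**Figure D5:**
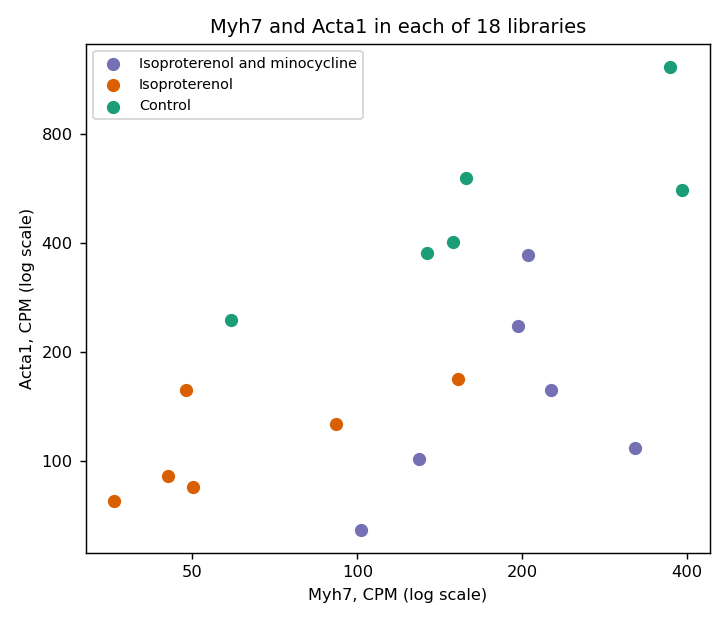
Acta1 against Myh7 in CPM (both axes logarithmic) in each of the 18 libraries, coloured by group. Within each group libraries with more Myh7 tend to hold more Acta1 (r of 0.46, 0.73 and 0.85 in Isoproterenol and minocycline, Isoproterenol and Control).

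The nonsarcomeric myosin heavy chains and actins that passed the test were higher, unlike the members. Of 11 other myosin heavy chain genes, 4 were tested. In Isoproterenol versus Control 0 of these fell and 2 rose (50.0%, against 6.94% of all genes tested). These were the nonmuscle myosins Myh14, at 101 ± 7.60 CPM in Isoproterenol against 79.1 ± 4.87 CPM in Control (log2 fold change 0.36, adjusted p = 0.00124, edgeR), and Myh9, at 165 ± 19.0 CPM in Isoproterenol against 120 ± 23.3 CPM in Control (0.46, adjusted p = 0.0402). Both also passed with minocycline added, with log2 fold changes of 0.30 and 0.43 against Control (50.0% of the 4, against 10.2% of all genes tested). Of the 4 other actins, 0 passed in Isoproterenol versus Control, where 12.6% of all genes tested passed. In Isoproterenol and minocycline versus Control 2 of them rose (50.0%, against 10.2% of all genes tested). Acta2, smooth muscle α-actin, was at 121 ± 25.5 CPM with both drugs and at 68.4 ± 14.6 CPM in Control (log2 fold change 0.82, adjusted p = 0.00244, edgeR). Actg2, smooth muscle γ-actin, was at 1.46 ± 0.724 CPM with both drugs and at 0.653 ± 0.275 CPM in Control (1.13, adjusted p = 0.0199). Acta2 and Actg2 are also in the list of smooth muscle markers. Of its 8 genes 3 rose in that comparison (37.5%, against 10.2% of all genes tested), Lmod1 being the other. The summed level of that list was 1638 to 2242 CPM in Isoproterenol and minocycline and 1591 to 1958 CPM in Control. Most of it was Des, at 1233 to 1818 CPM over all libraries, so the sum says little about the other genes listed. The median log2 fold change of the list with both drugs against Control was 0.79, and 0.0035 over all genes tested. The part of smooth muscle in the values of Acta2 and Actg2 was not tested.

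Some regulators of the isoforms passed the test against Control. Of 37 tested genes for transcription factors, thyroid hormone handling and chromatin factors, 5 fell and 2 rose in Isoproterenol versus Control. That is 18.9% of the list, against 12.6% of all genes tested, with a median log2 fold change of -0.11 in the list and 0.0011 over all genes. Those that fell were Thrb (thyroid hormone receptor β), Nfatc2 (a calcineurin-dependent factor), Six4 (a homeobox factor of muscle), Rxrg (a retinoid X receptor) and Sox6 (a repressor of slow muscle genes in skeletal muscle), and those that rose were the cardiac factors Tbx5 and Nkx2-5. Thrb was at 10.5 ± 2.00 CPM in Isoproterenol and 14.5 ± 1.72 CPM in Control (log2 fold change -0.47, adjusted p = 0.0186, edgeR). Six4 was at 3.40 ± 0.763 CPM in Isoproterenol and 5.04 ± 0.757 CPM in Control (-0.58, adjusted p = 0.0295). In Isoproterenol and minocycline versus Control, 6 fell and 3 rose, or 24.3% against 19.3% of all genes tested, with medians of -0.078 in the list and 0.0035 over all genes. Genes that fell made up 13.5% of the list in Isoproterenol versus Control, against 5.62% of all genes tested. With both drugs they made up 16.2% against 9.05%. Those that rose were 5.41% against 6.94% and, with both drugs, 8.11% against 10.2%. Whether the list differs from all genes was not tested. The steepest rise with both drugs was that of Dio2, the deiodinase that makes active thyroid hormone, at 6.47 ± 3.68 CPM, against 2.26 ± 0.826 CPM in Control (log2 fold change 1.51, adjusted p = 0.00306, edgeR). Hdac9, a class II histone deacetylase, was at 7.56 ± 1.27 CPM with both drugs and 12.6 ± 2.92 CPM in Control (-0.73, adjusted p = 0.00471), and Parp1 (-0.36, adjusted p = 0.00520) fell while Tbx5 (0.42, adjusted p = 0.00572) rose in the same comparison. In Isoproterenol and minocycline versus Isoproterenol, 0 of the 37 passed, where 0.0527% of all genes tested passed.

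Factors that assemble or cap actin and myosin filaments numbered 28, all tested. In Isoproterenol versus Control 5 fell and 3 rose, and in Isoproterenol and minocycline versus Control 10 fell and 3 rose. These are 28.6% of the list against 12.6% of all genes tested in Isoproterenol versus Control, and 46.4% against 19.3% with both drugs. Between the infused groups 0 passed in either direction, where 0.0527% of all genes tested passed. Genes that fell made up 17.9% of the list against 5.62% of all genes without minocycline, and 35.7% against 9.05% with it. The median log2 fold change of the list was -0.14 in Isoproterenol versus Control and -0.20 with both drugs. Tmod4, a cap of thin filament ends in striated muscle, was at 11.9 ± 1.93 CPM in Isoproterenol and 17.4 ± 1.70 CPM in Control (log2 fold change -0.55, adjusted p = 7.27e-04, edgeR). Cfl2, the muscle cofilin, was at 156 ± 7.35 CPM in Isoproterenol and 185 ± 7.77 CPM in Control (-0.24, adjusted p = 0.00394). Klhl40, which stabilises thin filament proteins in skeletal muscle, rose to 18.3 ± 3.37 CPM in Isoproterenol, against 12.4 ± 1.87 CPM in Control (0.57, adjusted p = 0.00235). With both drugs, Unc45b, the myosin chaperone of muscle, was at 113 ± 11.2 CPM and at 141 ± 8.04 CPM in Control (-0.31, adjusted p = 0.00241).

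Of 19 fetal and slow-muscle genes of the heart, 2 fell and 1 rose in Isoproterenol versus Control. That is 15.8% of the list, near the 12.6% of all genes tested and so no result about the list, with a median log2 fold change of -0.18. Casq1, skeletal calsequestrin and also 1 of the fast skeletal muscle markers, was at 7.39 ± 3.73 CPM in Isoproterenol and 17.7 ± 8.55 CPM in Control (log2 fold change -1.26, adjusted p = 0.0357, edgeR). Ankrd1, a stretch-responsive sarcomere protein, was at 509 ± 140 CPM in Isoproterenol and 841 ± 253 CPM in Control (-0.72, adjusted p = 0.0461). The one that rose was Hk1, a hexokinase (0.27, adjusted p = 0.0127). In Isoproterenol and minocycline versus Control, 2 fell and 4 rose, or 31.6% against 19.3% of all genes tested, with a median of -0.046. Among them were Hcn2, a pacemaker channel (-0.76, adjusted p = 1.39e-04, edgeR), and Myl9, a smooth muscle light chain (0.77, adjusted p = 0.0192, edgeR). Of the 3 atrial markers, 0 passed in each of the 3 comparisons. Over all genes tested, 12.6% passed in Isoproterenol versus Control, 0.0527% between the infused groups and 19.3% with both drugs against Control. With so few atrial markers, these counts are no result about them. Of 9 tested conduction markers only Tbx3 passed, rising in Isoproterenol and minocycline versus Control (0.62, adjusted p = 0.0355, edgeR). That is 11.1%, near the 10.2% of all genes tested and so no result about the list. Of 7 tested fast skeletal muscle markers, Ckm and Casq1 fell in Isoproterenol versus Control (28.6%, against 5.62% of all genes tested). With both drugs against Control, Ckm fell. That is 14.3%, near the 9.05% of all genes tested and so no result about the list.

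Genes whose log2-CPM followed a member most closely over the 18 libraries were picked from 11642 genes, so their coefficients are a description and include the group differences. For Acta1 these were Hspb6, a small heat shock protein of muscle (r = 0.92, rho = 0.89), Casq1 (r = 0.90, rho = 0.83) and Rubcn, a regulator of autophagy (r = 0.89, rho = 0.82). The gene that ran most against it was Pla2g5, a secreted phospholipase (r = -0.94, rho = -0.91). For Myh7 they were the ribosomal protein genes Rpl14 (r = 0.82, rho = 0.81) and Rpl10a (r = 0.80, rho = 0.82) and the translation inhibitor Eif4ebp1 (r = 0.82, rho = 0.78), with Whrn at the other end (r = -0.88, rho = -0.91). For Mhrt they were Tns1 (r = 0.84, rho = 0.81), Gltscr1l (r = 0.83, rho = 0.81) and Ogfr (r = 0.83, rho = 0.78), with Prrc1 at the other end (r = -0.88, rho = -0.84).

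Promoter windows of 300 bases, from 250 before to 50 after each RefSeq start site on GRCm38.p6, were found for all 6 members. Windows of the actins and of the dominant myosin are printed because the actins share an element that few promoters hold, with matches to the CArG box (bound by serum response factor), TATAAA and the MCAT element CATTCC in capitals on either strand.
Acta1, chr8:123894726-123895025, minus strand: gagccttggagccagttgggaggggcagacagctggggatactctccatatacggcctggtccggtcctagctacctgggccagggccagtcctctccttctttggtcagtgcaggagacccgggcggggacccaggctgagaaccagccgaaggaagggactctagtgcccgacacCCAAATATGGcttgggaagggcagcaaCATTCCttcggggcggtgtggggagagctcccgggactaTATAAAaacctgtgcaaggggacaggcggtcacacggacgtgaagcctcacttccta
Actc1, chr2:114052826-114053125, minus strand: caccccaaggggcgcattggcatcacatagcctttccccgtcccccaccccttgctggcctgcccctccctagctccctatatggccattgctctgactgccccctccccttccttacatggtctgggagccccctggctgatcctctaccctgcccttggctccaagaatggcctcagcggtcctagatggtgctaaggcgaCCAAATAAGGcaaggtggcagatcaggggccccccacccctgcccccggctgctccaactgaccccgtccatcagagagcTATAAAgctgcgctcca
Myh6, chr14:54966558-54966857, minus strand: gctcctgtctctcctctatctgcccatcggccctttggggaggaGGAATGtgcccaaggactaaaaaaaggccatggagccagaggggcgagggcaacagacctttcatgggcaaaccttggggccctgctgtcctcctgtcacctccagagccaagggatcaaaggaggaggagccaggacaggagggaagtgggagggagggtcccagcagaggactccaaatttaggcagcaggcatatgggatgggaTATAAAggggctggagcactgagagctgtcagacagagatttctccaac
A CArG box lies in the windows of Acta1, starting 73 bases before the start site, and of Actc1, starting 47 bases before it, and in 1.63% of the 32851 promoter windows of the table. TATAAA was found in Acta1, Actc1 and Myh6 (13.6% of all windows). It began 7 bases before the start site used in Acta1, 33 after it in Actc1 and 1 after it in Myh6. The start sites used for Actc1 and Myh6 lie inside the gene spans given above. The one used for Acta1, chr8:123894775, lies outside its span, upstream of the gene. All distances therefore hold for the start sites used only. CATTCC was found in Acta1, Myh6, Mhrt and 1 of the 2 windows of Myh7 (14.7% of all windows). The window of Myh7b alone held the thyroid hormone receptor half-site, spelled AGGTCA (16.3% of all windows). It was also the one member with the motif of GATA factors, spelled GATAA, which 25.4% of all windows hold. The E-box CANNTG occurred in all 6 members and in 72.3% of all windows, and the MEF2 motif in none of the members and 0.557% of all windows. Both strands were searched, and a match describes letters and shows neither binding nor a cause. Of the pair that share the CArG box, Acta1 fell and Actc1 did not pass the test in Isoproterenol versus Control.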

How the data were processed

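Polyadenylated RNA of 18 left ventricles or pools was sequenced as paired reads of 150 bases. Per the labels' protocols, the authors trimmed reads and ran the RNA-seq module of CLC Genomics Workbench 21.0.3; for mapping, build, annotation and strand no setting is given in the sources used. The submitters' processing notes name edgeR. The authors deposited whole-number counts per gene, and RPKM, which per the file headers they computed per kilobase and library size. Columns were matched to libraries by the number in the description label, with 0 per-sample columns left unmatched; titles carry a slightly different number. Coordinates equal those of GENCODE M21 (GRCm38) for 4 members and nearly so for Myh6 and Myh7.

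The tool was edgeR 4.0.16 under R 4.3.3 (filterByExpr, TMM, robust glmQLFit, glmQLFTest) in 1 fit of all 18 libraries, on the counts as deposited. The filter kept 13281 of 48709 genes, with 99.931 to 99.954% of counts, and all 6 members. Standard errors are the log2 fold change over the square root of F. CPM use TMM-scaled library sizes, and log2-CPM carry a prior count of 2. Isoform ratios use the deposited RPKM. The test script was checked on simulated counts. Exact tests used scipy 1.17.1, and correlations 100000 permutations within groups. Replicate numbers follow accession order and pair nothing; no sequencing batch is labelled. Alternatives were DESeq2 1.42.0, RLE scaling, no filter or 1 CPM in 6 libraries, the 12 libraries compared, no mitochondrial genes, an atrial covariate, ratios of raw counts, counts per base of the first-numbered coding transcripts (added after seeing the data), log2 ratios, medians, Mhrt counts added to Myh7, and leaving out each library. Members and gene lists were chosen with earlier results of these data known. Named genes are the members, up to 4 called genes of each list with the smallest p (also all of a direction with 5 or fewer, where given, after their values were seen), and for Myh7, Acta1 and Mhrt the 3 genes with the highest and the 1 with the lowest correlation. A gene that this rule names is not reported here.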

Additional observations from a re-analysis of the deposited data

Results flagged for a closer look

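A single library stood apart from the other 5 of its group in 5 of the 36 sets of 6 values examined (6 members and 6 ratios in 3 groups). Chance gives about 1 in 20 for independent, normally distributed values. The sets are not independent, because the ratios are formed from the members, so that rate is only a guide. Acta1 was at 1228 CPM in Control 2, against 607 CPM in the next highest Control library, and its share of Acta1 plus Actc1 there was 13.5%, against 6.21% in the next. Myh7b was at 107 CPM in Isoproterenol and minocycline 6, against 83.1 CPM in the next highest library of that group, and its share of the summed myosins there was 0.463%, against 0.314%. Myh7b was also at 104 CPM in Isoproterenol 4, against 81.1 CPM in the next highest isoproterenol library. All 5 were the highest of their group.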

How the results depend on the processing

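Of 921 alternative values computed, 838 kept their direction and side of the threshold or, for counts of genes, stayed within 1.5 times; 31 turned sign, 27 lost a call, 13 gained one and 12 counts moved further. Lengths of the first-numbered coding transcripts, an alternative chosen after seeing the data, changed no call among the 18 ratio tests. Myh7 in Isoproterenol versus Control lost its call without a filter (-1.58, adjusted p = 0.0605, edgeR) and in the 12 libraries compared (-1.57). For Isoproterenol and minocycline versus Isoproterenol, called genes numbered 33 with DESeq2 and 2 in the 12 libraries compared, against 7; the Myh7 share passed as a log2 ratio (1.48) or with medians (0.50), log2 Mhrt over Myh7 passed with medians (-1.76), and log2 actins over myosins turned to -0.0051 with medians. The causes were not tested.

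Leaving out 1 library at a time gave these ranges. In Isoproterenol versus Control, called genes numbered 1079 (without Control 4) to 1877, against 1669; log2 fold changes were -1.95 to -1.30 for Myh7 and -0.44 to -0.31 for Mhrt; differences were -0.375 to -0.210 for the Myh7 share, 0.88 to 1.40 for log2 Mhrt over Myh7 and -0.090 to 0.019 for log2 Mhrt over Myh6. In Isoproterenol and minocycline versus Isoproterenol, called genes numbered 1 (without Isoproterenol and minocycline 1 or 4 or Isoproterenol 6) to 13 (without Isoproterenol and minocycline 6), also changing by over 1.5 times without Isoproterenol and minocycline 5 or Isoproterenol 2, 3, 4 or 5 (2, 11, 3, 3 and 4). Values were -0.024 to 0.14 for the Myh7b log2 fold change, 0.295 to 0.435 for the Myh7 share, -0.0331 to 0.00590 for the Myh7b share, -1.75 to -1.29 for log2 Mhrt over Myh7, -0.032 to 0.086 for log2 Mhrt over Myh6 and -0.053 to 0.058 for log2 actins over myosins. In Isoproterenol and minocycline versus Control, log2 fold changes were -0.30 to 0.17 for Myh7 and -0.34 to -0.20 for Mhrt; differences were -0.00585 to 0.159 for the Myh7 share, -4.73 to -2.55 for the Acta1 share, -0.176 to -0.140 for the Myh7b share and -0.057 to 0.043 for log2 Mhrt over Myh6. Reversals were seen in values whose main test was not passed.

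No paired analysis was possible because the replicate numbers were given in accession order and no library number occurs in more than 1 group. Mapping, strand use and pooling are unknown, so Mhrt against Myh7 and Myh7b against Trpc4ap cannot be told apart in shared exons, and RPKM rests on the authors' gene lengths.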
